A study of Mus musculus with 24 samples.

Results

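Respiratory chain subunits were measured as RNA in mouse embryonic fibroblasts, connective tissue cells grown from E13.5 embryos. They were chosen by gene symbol from the 45706 gene IDs of the deposited count table: the subunits of complexes I to IV and of the ATP synthase (complex V), protein-coding genes only, with a mean counts-per-million (CPM) value of at least 1 over 24 libraries. Of 105 symbols that matched the patterns, 85 were members, 10 encoded by mitochondrial DNA and 75 by nuclear genes. The nuclear members comprised 35 genes of complex I, 4 of complex II, 8 of complex III, 11 of complex IV and 17 of complex V. The rule dropped 10 symbols that were not protein-coding, 2 that it names (Ndufa4 and Ndufa4l2) and 8 with a mean below 1 CPM. Just inside the limit were mt-Atp6 at 3.72 CPM and Atp5s at 4.91 CPM, and just outside it Cox7a1 at 0.786 and mt-Nd4l at 0.729 CPM.

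The cells were wild type (WT), Vhl-altered, Rassf1a-altered or doubly altered (Vhl/Rassf1a), and each of these 4 genotypes had 3 libraries named Cre, labelled as knockout, and 3 named GFP, labelled as control. The WT Cre libraries carry the knockout label too. The labels do not say how Cre or GFP was delivered, which exons were altered, or whether the 3 libraries of a group came from separate embryos or cultures. The p-values therefore reflect how these libraries varied, and that variation may be technical. The Vhl protein binds hypoxia-inducible factors (HIF) when oxygen is present and, with its ubiquitin ligase partners, sends them for destruction. Rassf1a is a microtubule-binding tumour suppressor encoded by the Rassf1 gene.

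The respiratory chain passes electrons from NADH and succinate to oxygen through complexes I to IV of the inner mitochondrial membrane, and the proton gradient this builds drives the ATP synthase. Complex II is made of nuclear-encoded subunits alone, while the others combine nuclear subunits with a few core subunits encoded by mitochondrial DNA. The mitochondrial genes are transcribed as long precursors from both strands and cut into single transcripts, whereas each nuclear subunit has its own promoter. In cells without VHL, HIF is known to shift metabolism towards glycolysis and to exchange some respiratory subunits for hypoxic forms.

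All 24 libraries expressed fibroblast markers, whose 10 genes summed to between 25569 and 38347 CPM. Library totals lay between 29934173 and 55849586 counts. Vhl itself stood at 25.7, 27.6 and 26.8 CPM in Vhl GFP and at 2.54, 2.34 and 2.85 CPM in Vhl Cre, and at 20.8, 21.3 and 23.8 against 1.81, 2.70 and 1.77 CPM in Vhl/Rassf1a. Rassf1 did not pass the test in Rassf1a (26.6 ± 1.25 CPM in Cre and 27.9 ± 2.90 CPM in GFP, SD, n = 3, log2 -0.07), while it rose in Vhl/Rassf1a Cre (45.2 ± 2.11 against 32.6 ± 3.95 CPM in GFP, log2 0.47) and in Vhl Cre (43.7 ± 1.00 against 26.6 ± 2.49 CPM, log2 0.72). A count over the whole Rassf1 gene does not resolve its 1a form, so it does not check those labels. A pair of GFP libraries, replicate 1 of Rassf1a and replicate 2 of Vhl/Rassf1a, stood apart from the other 22 in the mitochondrial share given below. Results that rest on them are given with and without them. Because that share singled them out, mitochondrial values, calls and p-values from fits without them are selected on the counts tested.

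Part of the mitochondrial sequence also exists in the nuclear genome, which bears on the counts of the mitochondrially encoded members. The nuclear copies are annotated pseudogenes, mainly a run on chromosome 1 (24611535 to 24616197, GRCm38) and a second group on chromosome 2. Each mitochondrial transcript was compared in stretches of 50 bases with all other annotated transcripts. For mt-Co2, mt-Co3 and mt-Atp6, 100%, 99.9% and 99.5% of the stretches also occurred elsewhere, for mt-Nd4 62.2% and for mt-Co1 51.1%. For mt-Nd2 and mt-Nd5 the shares were 8.19% and 7.61%, and for mt-Nd1, mt-Nd6 and mt-Cytb they were 0%. Stretches of 60 bases from a gene with a full copy, a partial copy and no annotated copy show the difference. Capitals mark bases that lie in a 50-base stretch also found in the chromosome 1 copy:
mt-Co2, chrM:7313-7372, plus strand, GRCm38: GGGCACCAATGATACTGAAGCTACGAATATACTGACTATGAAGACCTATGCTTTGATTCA
mt-Nd4, chrM:11013-11072, plus strand, GRCm38: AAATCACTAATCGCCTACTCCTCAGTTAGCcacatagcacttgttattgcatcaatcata
mt-Cytb, chrM:14445-14504, plus strand, GRCm38: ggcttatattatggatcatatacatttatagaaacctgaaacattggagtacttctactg

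Among the 10 members, the 3 with nearly full copies had by far the lowest levels. Per kb of length, mt-Co1, the catalytic core of cytochrome c oxidase, had a mean of 3149 CPM over the 24 libraries, and mt-Cytb, the cytochrome b of complex III, 1983 CPM. The complex I genes mt-Nd1, mt-Nd2, mt-Nd5, mt-Nd6 and mt-Nd4 had 1649, 907, 818, 660.3 and 595 CPM per kb. In contrast, mt-Co2, mt-Co3 and mt-Atp6, which lie on the same strand between mt-Co1 and mt-Nd4, had 11.4, 11.0 and 5.46 CPM per kb. In CPM not divided by length, their copies of nearly the same length were listed higher than these 3 genes (7.79, 8.62 and 3.72 CPM), Gm28661 (the copy of mt-Co2) at 16.8 CPM, Gm28437 (mt-Co3) at 16.2 CPM and Gm10925 (mt-Atp6) at 15.5 CPM. Reads that fit both places cannot be told apart in these counts, so the levels of mt-Co2, mt-Co3 and mt-Atp6, and in part those of mt-Nd4 and mt-Co1, are uncertain. Among genes below the limit, mt-Nd3 and mt-Nd4l shared 97.99% and 98.79% of their stretches. mt-Atp8, which overlaps mt-Atp6 over 43 bases, shared 0% with other annotated transcripts and was at 0.215 CPM. Sequence outside annotated transcripts was not compared. On chromosome 1 the copies of mt-Atp6 (24613974 to 24614651) and mt-Co2 (24614885 to 24615565) leave a gap between them. Whether that gap holds a copy of mt-Atp8 was not tested.

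**Figure D1:**
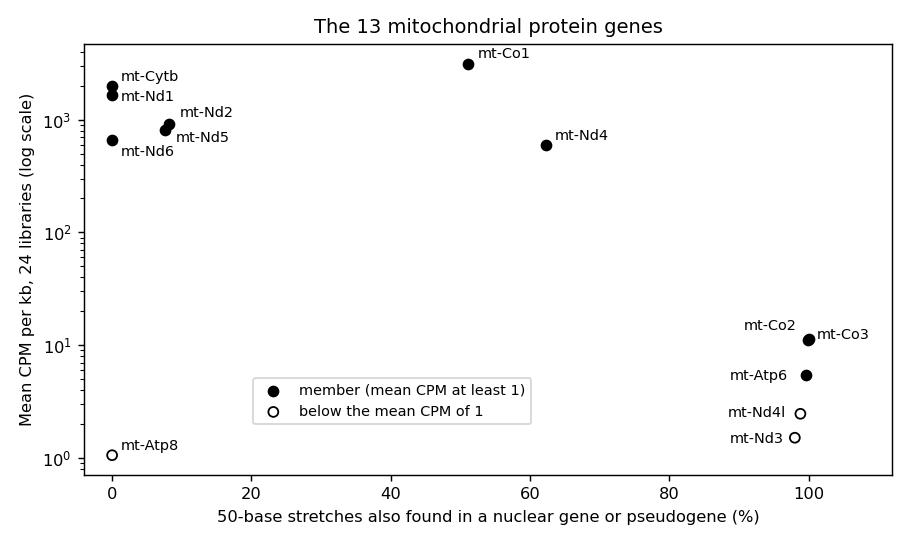
Mean CPM per kb over 24 libraries (log axis) of the 13 mitochondrial protein genes against the share of their 50-base stretches also found in another annotated gene; filled points are the 10 members and open points the 3 genes below 1 CPM. The 5 genes near the full share all lie below 12 CPM per kb, and the other members lie at 595 and above. mt-Atp8 is low with no stretch found in another annotated gene, and sequence outside annotated genes was not compared.

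Levels between genes are compared per length, as CPM per kb of the merged exons, in the WT GFP libraries. The mitochondrial complex I genes ranged from 685 (mt-Nd4) to 1878 (mt-Nd1) CPM per kb, mt-Cytb stood at 2308 ± 59.1 and mt-Co1 at 3739 ± 91.6 (SD, n = 3). The median over the 75 nuclear members was 32.8 CPM per kb. Nuclear medians were 24.1 for complex I, 43.2 for complex II, 43.1 for complex III, 60.6 for complex IV and 36.9 for complex V. Atp5b, the catalytic beta subunit of the ATP synthase, was the highest nuclear member at 252 ± 7.15 CPM per kb, ahead of Cox6b1 at 172 ± 7.31 and Cox6a1 at 160.2 ± 14.2, whose values lie within their combined spread. At the low end stood Ndufb2 at 0.755 ± 0.0612 and Atp5s at 2.58 ± 0.267 CPM per kb. In complex II the order was Sdhd (67.6), Sdha (53.2), Sdhb (33.2) and Sdhc (26.5), and in complex III it ran from Uqcr10 (73.5 ± 2.43) and Uqcr11 (70.5 ± 3.92), which overlap in their spread, to Uqcrq (30.5).

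The tissue forms of complex IV subunits were those of non-muscle cells. Cox6a1, Cox7a2 and Cox8a, the forms found in most tissues, were at 160.2 ± 14.2, 67.4 ± 4.04 and 135 ± 22.0 CPM per kb in WT GFP (SD, n = 3). The muscle forms Cox6a2, Cox7a1 and Cox8b had means of 0.066, 0.786 and 0.0012 CPM over all libraries, and the testis forms Cox7b2 and Cox8c 0 and 0.0022 CPM. The exception was Cox6b2, also known as a testis form, at 14.4 ± 0.418 CPM per kb beside 172 ± 7.31 for Cox6b1. In none of the 4 comparisons of Cre with GFP did Cox6a1, Cox6b1, Cox6b2 or Cox7a2 pass the test used below, and their log2 fold changes lay between -0.18 and 0.17. With GC-corrected offsets Cox6a1 passed in Vhl (0.21) and Vhl/Rassf1a (0.11).

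The 10 mitochondrially encoded members together took 0.696% to 1.67% of a library's counts, and the 75 nuclear members 0.550% to 0.663%. In WT GFP the mitochondrial share was 1.45% ± 0.0335 (SD, n = 3) and in Vhl GFP 1.36% ± 0.0730. Vhl Cre stood at 0.991%, 0.833% and 0.901% (0.908% ± 0.0795), below every WT and Vhl GFP library. Vhl/Rassf1a Cre stood at 1.07%, 1.02% and 0.966%, where its GFP libraries had 1.51%, 0.696% and 1.44%. In Rassf1a GFP the 3 libraries had 0.711%, 1.14% and 1.33%, and in Rassf1a Cre 1.28% to 1.37%. The lowest shares of all were thus those of replicate 1 of Rassf1a GFP and replicate 2 of Vhl/Rassf1a GFP, which also had the highest nuclear shares, 0.663% and 0.646%.

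In those 2 libraries nuclear genes of like base composition were low as well. Among 658 nuclear genes with 34.1% to 39.9% GC, the range of the mitochondrial members, the median deviation from the mean of all libraries was -0.38 and -0.46 on the log2 scale, beside -0.89 and -0.90 for the mitochondrial members. In the 3 Vhl Cre libraries the same nuclear genes deviated by 0.07, -0.07 and -0.06, while the mitochondrial members deviated by -0.19, -0.50 and -0.33. The part of base composition in the results below was not tested. In bulk RNA, fewer cells of a type and less RNA per cell cannot be told apart.

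**Figure D2:**
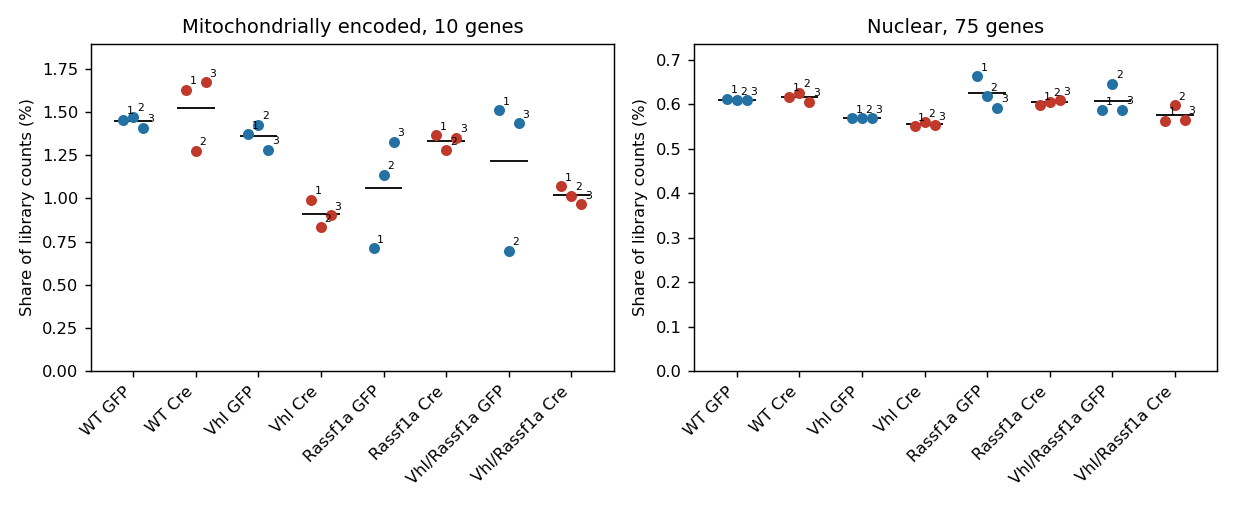
Share of library counts (%) of the 10 mitochondrially encoded members (left) and the 75 nuclear members (right) in each library by group; numbers are replicates, bars are means of 3, blue is GFP and red is Cre. Vhl Cre lies at 0.833% to 0.991% for the mitochondrial members, and 1 Rassf1a GFP and 1 Vhl/Rassf1a GFP library lie lower still.

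In Vhl cells most mitochondrially encoded members were lower in Cre than in GFP libraries, and most nuclear members did not pass the test. Of the 10 mitochondrially encoded members, 7 fell, 0 rose and all 10 had a negative log2 fold change, with a median of -0.63. Of the 75 nuclear members, 9 fell and 4 rose, and their median was -0.03. Over all 16573 genes tested, 36.1% passed the threshold of an adjusted p of 0.05 in edgeR's quasi-likelihood test, 18.7% lower and 17.4% higher, with a median of -0.01. Of the nuclear members 17.3% passed it and of the mitochondrial members 70%. The mitochondrial members with mostly unshared stretches were mt-Nd1, mt-Nd2, mt-Nd5, mt-Nd6 and mt-Cytb. Of these 5, 2 passed (40%), near the share of all genes, and their median was -0.59. Mitochondrial members are cut from shared precursors, so they are not separate observations. No test of these lists against other genes was made.

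mt-Cytb shared 0% of its 50-base stretches with other annotated transcripts. It stood at 2601, 2701 and 2464 CPM in Vhl GFP and at 1669.9, 1423 and 1530.5 CPM in Vhl Cre. The groups did not overlap, and mt-Cytb fell by 0.75 on the log2 scale (SE 0.16, 1.68-fold lower, edgeR adjusted p = 0.000861). mt-Co1 stood at 5275, 5529.5 and 5193.5 CPM in GFP and at 3585, 3207 and 3349.6 CPM in Cre, and it fell by 0.66 (SE 0.18, edgeR adjusted p = 0.00697). Again every Cre library lay below every GFP library. mt-Co2 was at 7.55, 9.36 and 8.80 CPM in GFP and at 4.79, 4.68 and 4.46 CPM in Cre, and it fell by 0.88 (SE 0.20, adjusted p = 0.000943). Its reads cannot be told from those of its copy Gm28661, which fell too, by 1.02 (SE 0.19).

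Of the mitochondrial complex I genes, mt-Nd5 fell by 0.59 (SE 0.21, edgeR adjusted p = 0.0265) and mt-Nd4 by 0.51 (SE 0.16, adjusted p = 0.0156). mt-Nd1 (-0.41, SE 0.24), mt-Nd2 (-0.32) and mt-Nd6 (-0.59) did not pass the threshold. mt-Nd6 is the only member read from the other strand of mitochondrial DNA; its 3 Cre libraries were at 303, 235 and 267 CPM and its GFP libraries at 391, 456 and 368 CPM, so that these groups did not overlap either. mt-Atp6 fell by 1.06 (SE 0.34) and mt-Co3 by 0.86 (SE 0.32), both with copies that cover nearly their whole length. The calls of mt-Cytb, mt-Co1 and mt-Co2 held with each of the 6 libraries left out in turn. The number of mitochondrial calls was then 3 without Vhl Cre replicate 2, 4 without Vhl GFP replicate 1, GFP replicate 2 or Cre replicate 3, and 6 without either of the others. The mt-Co3 call was lost in all 6 cases.

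The mitochondrial ribosomal RNAs, read from the same strand as most of these genes, did not pass the test. mt-Rnr1 stood at 107 ± 5.30 CPM in Vhl GFP and 115 ± 14.1 CPM in Vhl Cre (log2 fold change 0.11, SE 0.20), and mt-Rnr2 at 201 ± 6.01 and 215 ± 9.13 CPM (0.09, SE 0.22). The difference between ribosomal and messenger RNAs was not itself tested. Together, mt-Rnr1 and mt-Rnr2 took 0.0141% to 0.0427% of a library's counts. Whether such counts follow the level of these RNAs in the cells was not tested.

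**Figure D3:**
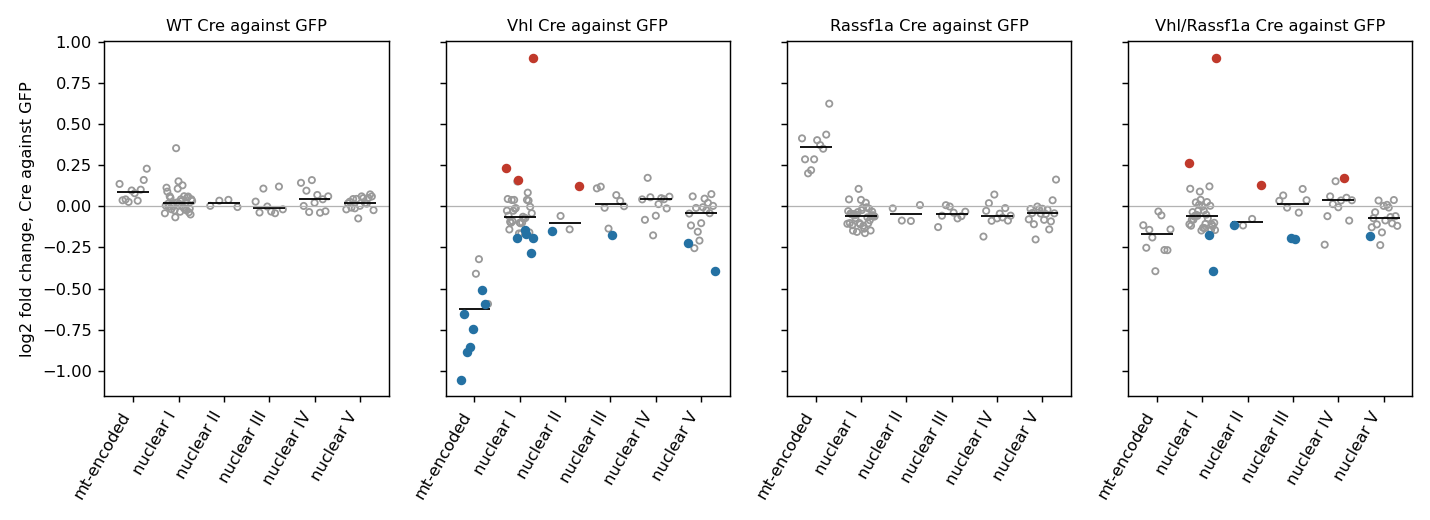
Log2 fold change of Cre against GFP for each member in the 4 genotypes, with the mitochondrially encoded members first and the nuclear members by complex; filled red points rose and filled blue points fell (edgeR adjusted p under 0.05), open points did not pass, and bars are medians. In Vhl the mitochondrially encoded members lie at -0.32 to -1.06, below nearly all nuclear members, and Ndufv3 is the highest point in Vhl and Vhl/Rassf1a.

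In Vhl/Rassf1a cells the number of mitochondrial calls depended on 1 control library and on the processing. With all libraries, 0 of 10 mitochondrially encoded members passed the threshold between Cre and GFP, where 29.7% of all genes did, although all 10 were below 0 (median -0.17). At an unadjusted p under 0.05 there was 1, and by DESeq2 there were 0. With all libraries kept, GC-corrected offsets gave 4, all lower, as did the fit without the filter on low counts. mt-Cytb stood at 2749, 1493 and 2680 CPM in GFP and at 1827, 1741 and 1697 CPM in Cre. GFP replicate 2 lay below all 3 Cre libraries and the other 2 GFP libraries above them. Without that library the median was -0.51 and 4 members fell, mt-Cytb by 0.63 (SE 0.12, edgeR adjusted p = 0.000411), mt-Nd4 by 0.50 (SE 0.12), mt-Co1 by 0.52 (SE 0.13) and mt-Nd5 by 0.53 (SE 0.17). With Rassf1a GFP replicate 1 left out as well, 9 of 10 fell, and mt-Nd6 (-0.43, SE 0.21) did not pass. Both libraries were singled out by their low mitochondrial shares, so these calls and p-values are selected on the values tested. Leaving out a low control moves the Cre change downward. In the nuclear genes of like GC, Vhl/Rassf1a GFP replicate 2 was the library with the deviation of -0.46 given above.

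**Figure D4:**
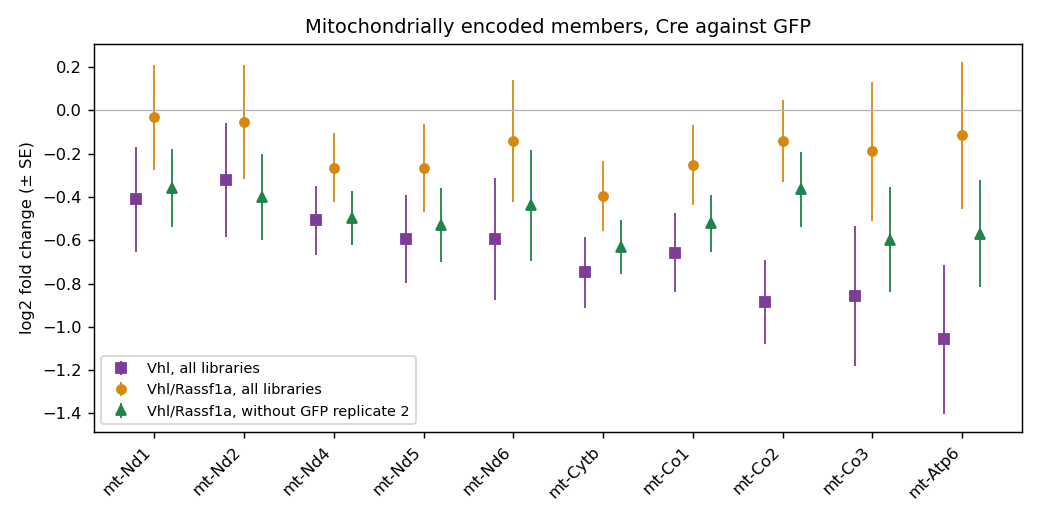
Log2 fold change ± SE of Cre against GFP for the 10 mitochondrially encoded members in Vhl (squares), in Vhl/Rassf1a with all libraries (circles) and in Vhl/Rassf1a without GFP replicate 2 (triangles). Leaving out that library, singled out by its low mitochondrial share, moves mt-Cytb from -0.39 to -0.63 and mt-Co1 from -0.25 to -0.52.

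In the main fit, which used the filter on low counts, neither WT nor Rassf1a cells had a member past the threshold. Without that filter 1 mitochondrial member was higher in WT Cre and 7 in Rassf1a Cre, beside 0.945% and 0.465% of all genes that passed. With GC-corrected offsets 1 was higher in Rassf1a Cre, beside 1.19% of all genes that passed. In WT Cre against GFP, 0 of 85 members passed, beside 1.26% of all genes (0.833% higher and 0.428% lower); at an unadjusted p under 0.05 there were 0 mitochondrial and 3 nuclear members, and DESeq2 gave 0 in both sets. The mitochondrial median was 0.09 and the nuclear median 0.02. In Rassf1a, 0 of 85 passed, beside 0.392% of all genes (0.187% higher and 0.205% lower), with 3 mitochondrial and 2 nuclear members at an unadjusted p under 0.05 and 0 by DESeq2. The mitochondrial median there was 0.36 with all 10 above 0, and mt-Cytb stood at 1469, 2173 and 2416 CPM in GFP and 2466.5, 2390.3 and 2533 CPM in Cre. Without GFP replicate 1 the log2 fold change of mt-Cytb was 0.11 (SE 0.15) in place of 0.29, and that of mt-Co3 was -0.12.

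The Cre effect in Vhl cells was also set against that in WT cells, as the difference of both log2 fold changes. mt-Cytb differed by -0.85 (SE 0.23, edgeR adjusted p = 0.00918) and mt-Co2 by -0.93 (SE 0.27, adjusted p = 0.0143), 2 of 10 mitochondrial members beside 23.2% of all genes, and both calls held with each of the 12 libraries left out in turn. The count of 2 was 9 with GC-corrected offsets, with only the groups compared or with both libraries that stand apart left out, and 10 without the filter on low counts, while the median stayed between -0.80 and -0.79 (-0.79 with all libraries). For Vhl/Rassf1a against WT there were 0 of 10, beside 14.8% of all genes (7.41% higher and 7.40% lower), with 1 at an unadjusted p under 0.05 and 0 by DESeq2. Without Vhl/Rassf1a GFP replicate 2 there were 4. Between the Vhl/Rassf1a and the Vhl effect there were 0 of 10 mitochondrial and 0 of 75 nuclear members, beside 6.09% of all genes (3.44% higher and 2.65% lower), with 1 and 2 at an unadjusted p under 0.05 and 0 by DESeq2. All 10 mitochondrial differences were above 0 there, with a median of 0.39. Without Vhl/Rassf1a GFP replicate 2 that median was 0.12 and 0 of 10 passed. With all libraries, 2 passed with GC-corrected offsets and 9 without the filter on low counts. For Rassf1a against WT there were 0 of 85 members, beside 0.00603% of all genes, with 0 mitochondrial and 4 nuclear members at an unadjusted p under 0.05 and 0 by DESeq2. Of the nuclear members, 2 passed for Vhl/Rassf1a against WT (Ndufv3 and Cox7a2l, described below); leaving out WT GFP replicate 1 gave 1, leaving out Vhl/Rassf1a GFP replicate 1 or 2 gave 4, and leaving out its replicate 3 gave 5. For Vhl/Rassf1a against Vhl, 2 nuclear members passed without Vhl/Rassf1a GFP replicate 2. The 3 comparisons with WT share the WT libraries.

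Among the nuclear members, Ndufv3 changed most. Ndufv3 encodes a small accessory subunit of the NADH-oxidising module of complex I. It stood at 42.8, 39.5 and 43.6 CPM in Vhl GFP and at 76.8, 80.2 and 79.1 CPM in Vhl Cre, and at 38.7, 50.3 and 37.3 against 74.5, 82.3 and 79.9 CPM in Vhl/Rassf1a. In both genotypes every Cre library lay far above every GFP library. Ndufv3 rose 1.88-fold in Vhl (log2 0.91, SE 0.09, edgeR adjusted p = 2.81e-08) and 1.87-fold in Vhl/Rassf1a (0.90, SE 0.09, adjusted p = 5.01e-08). Its other groups had means between 36.1 (WT GFP) and 42.7 CPM (Rassf1a GFP). The Cre effect exceeded that in WT by 0.87 in both (adjusted p = 1.70e-05 and 3.67e-05).

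Ndufa1, a membrane-arm subunit of complex I, was at 24.4, 23.4 and 23.9 CPM in Vhl GFP and 28.6, 27.7 and 28.0 CPM in Vhl Cre, without overlap, and rose by a log2 of 0.24 (SE 0.07, edgeR adjusted p = 0.0142). In Vhl/Rassf1a it rose by 0.26 (SE 0.07, adjusted p = 0.00886), a call lost without Cre replicate 2. Sdhd, a membrane anchor of complex II, was at 75.8, 74.5 and 77.6 CPM in Vhl GFP and 82.9, 84.4 and 81.1 CPM in Vhl Cre. It rose by 0.12 (SE 0.04, adjusted p = 0.0246) and in Vhl/Rassf1a by 0.13 (SE 0.04, adjusted p = 0.023). In WT GFP Sdhd stood at 84.1, 84.5 and 81.1 CPM, which overlaps the Vhl Cre libraries. Leaving out single libraries ended the Sdhd call in 3 of 6 cases in Vhl (GFP replicates 1 and 2, Cre replicate 2) and in 4 of 6 in Vhl/Rassf1a (GFP replicates 2 and 3, Cre replicates 1 and 2). Ndufb3, also of complex I, rose by 0.16 (SE 0.06) in Vhl, and Cox7a2l by 0.18 (SE 0.05) in Vhl/Rassf1a. The difference between the Vhl and Vhl/Rassf1a effects did not pass the threshold for either (Ndufb3 -0.12, SE 0.08, and Cox7a2l 0.13, SE 0.07).

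Promoter sequences of the 3 genes that rose in both genotypes are shown because HIF is known to bind the letters ACGTG and GCGTG. Each run holds the 250 bases before the RefSeq start, 5′ to 3′ in the direction of the gene on GRCm38.p6, with ACGTG and GCGTG on either strand in capitals. The RefSeq starts of Ndufa1 and Sdhd lie 75 and 37 bases from the GENCODE starts.
Ndufv3, chr17:31519865-31520114, plus strand: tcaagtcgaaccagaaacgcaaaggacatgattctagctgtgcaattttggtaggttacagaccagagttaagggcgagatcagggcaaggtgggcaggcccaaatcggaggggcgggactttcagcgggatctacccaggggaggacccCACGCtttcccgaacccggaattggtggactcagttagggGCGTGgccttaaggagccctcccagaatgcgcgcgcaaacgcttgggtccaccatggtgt
Ndufa1, chrX:37191239-37191488, minus strand: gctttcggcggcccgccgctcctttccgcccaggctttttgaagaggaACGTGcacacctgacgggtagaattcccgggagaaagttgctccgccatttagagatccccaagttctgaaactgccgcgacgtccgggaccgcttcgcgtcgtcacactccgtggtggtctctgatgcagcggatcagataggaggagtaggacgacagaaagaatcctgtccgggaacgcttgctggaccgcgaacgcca
Sdhd, chr9:50603850-50604099, minus strand: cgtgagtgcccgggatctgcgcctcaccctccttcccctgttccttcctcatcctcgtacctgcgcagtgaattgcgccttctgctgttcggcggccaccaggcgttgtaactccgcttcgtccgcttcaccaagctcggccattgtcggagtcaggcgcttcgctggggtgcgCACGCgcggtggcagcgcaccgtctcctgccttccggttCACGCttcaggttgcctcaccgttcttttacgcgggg

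These letters are common. RefSeq promoters were matched for 64 of the 75 nuclear members, and over 300 bases, 250 before and 50 after the start, ACGTG occurred on either strand in 25.0% of them and in 19.6% of all 32817 promoters. GCGTG occurred in 32 of the 64, a larger share than the 32.4% of all promoters. This difference was not tested. Members that fell in both genotypes held these letters too, Sdha with 1 ACGTG and 2 GCGTG and Ndufs8 with 1 GCGTG. Letters bound by factors known from nuclear respiratory genes were CCGGAAG (ETS factors such as GABP) in 23.4% and 8.9%, GCATGCGC (part of the NRF1 site) in 15.6% and 2.7%, and AAGATGGCG (YY1) in 9.4% and 1.4%. A match is a description of letters and shows no binding.

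The nuclear members that fell changed by at most 0.40 on the log2 scale. In Vhl cells they included Atp5s (-0.40, SE 0.14), Ndufs8 (-0.29, SE 0.10), Atp5a1 (-0.22, SE 0.04), Ndufb11 (-0.19, SE 0.07), Ndufv2 (-0.19, SE 0.07), Uqcrc2 (-0.18, SE 0.04), Sdha (-0.15, SE 0.03) and Ndufc2 (-0.14, SE 0.05). Ndufs8 and Ndufv2 are core subunits of the electron path of complex I, Sdha is the catalytic subunit of complex II, Uqcrc2 a core protein of complex III and Atp5a1 the alpha subunit of the ATP synthase. In Vhl/Rassf1a cells 10 of 75 passed (13.3%), 6 lower and 4 higher, where 29.7% of all genes passed, 14.8% lower and 14.9% higher. Those that fell included Ndufs8 (-0.39, SE 0.10), Uqcrc2 (-0.20, SE 0.04), Uqcrc1 (-0.19, SE 0.07), Atp5a1 (-0.18, SE 0.04) and Sdha (-0.11, SE 0.03). The Vhl and Vhl/Rassf1a comparisons share no library; 8 nuclear members passed in the same direction in both, 61.5% of the 13 in Vhl and 80.0% of the 10 in Vhl/Rassf1a. Over all genes tested the shares were near these, 57.9% and 70.5%.

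Sdha stood at 190.5, 190.8 and 194 CPM in Vhl GFP and 173, 176 and 169.6 CPM in Vhl Cre, and at 206, 198 and 204 against 187, 189 and 187 CPM in Vhl/Rassf1a. The groups did not overlap in either genotype. Atp5a1 was at 512, 496 and 519.5 CPM in Vhl GFP and 426, 451 and 434 CPM in Cre, and at 540.4, 570.2 and 549.9 against 488, 495 and 483 CPM in Vhl/Rassf1a, again without overlap. Ndufs8 was at 37.2, 37.7 and 38.2 CPM in Vhl GFP and 28.7, 32.5 and 31.6 CPM in Cre. In Vhl/Rassf1a its GFP libraries had 37.0, 48.9 and 37.0 CPM, the 48.9 in replicate 2, and its Cre libraries 31.7, 31.8 and 30.2 CPM. Without GFP replicate 2 the Ndufs8 change in Vhl/Rassf1a was -0.25 in place of -0.39, an over 1.5 times smaller change that still passed. Relative to the Cre effect in WT, Sdha (-0.15, SE 0.05, edgeR adjusted p = 0.0218), Atp5a1 (-0.20, SE 0.06, adjusted p = 0.0103) and Cox6b2 (-0.34, SE 0.12, adjusted p = 0.0471) were lower in Vhl, 3 of 75 beside 12.5% of all genes that were lower. The nuclear count, with Ndufv3 4 in all, was 2 without Vhl Cre replicate 1 or 3.

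**Figure D5:**
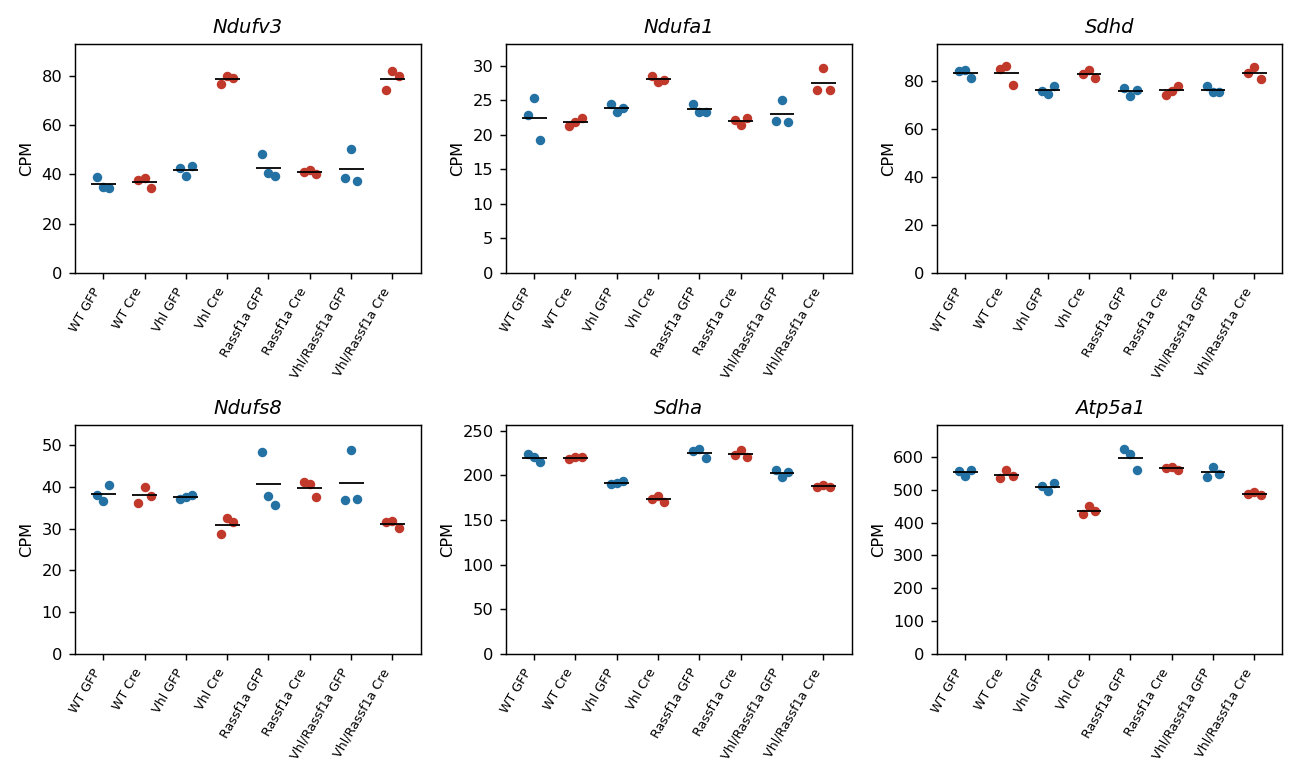
CPM of 6 nuclear members in each library by group, each axis starting at 0; blue is GFP, red is Cre and bars are means of 3. Ndufv3 lies at 74.5 to 82.3 CPM in the Cre libraries of Vhl and Vhl/Rassf1a and at or below 50.3 CPM elsewhere, while Sdha and Atp5a1 are lower in those Cre libraries than in their GFP libraries.

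Several calls rest on single libraries, and some called genes overlap other genes. In Vhl, the calls of Ndufv3, Atp5a1, Uqcrc2, Ndufa1 and Sdha held with each library left out, whereas those of Atp5s and Ndufc2 held in 1 of 6 cases, those of Ndufb3, Ndufv2 and Ndufb11 in 2, and that of Ndufs8 in 3, lost without GFP replicates 2 or 3 or Cre replicate 1. The count of 13 fell to 7 without GFP replicate 2 and to 8 without GFP replicate 1, GFP replicate 3 or Cre replicate 2. In Vhl/Rassf1a the Uqcrc1 call held in 2 of 6 cases (lost without GFP replicate 2 or any Cre library) and that of Sdha in 4 (lost without GFP replicate 1 or Cre replicate 3). As means over 24 libraries, Ndufb11 (43.0 CPM) overlaps Rbm10 (51.7 CPM) over 117 bases on the opposite strand. Uqcrc2 (109 CPM) overlaps Pdzd9 (0.183 CPM) and Atp5a1 (532 CPM) overlaps Haus1 (8.63 CPM). Whether the counting used strand is not given in the sources used here, and the part of these overlaps in the calls was not tested. Processed pseudogenes elsewhere share 17.7% of the stretches of Cox7a2l and 17.2% of those of Ndufa12.

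The GFP libraries of the altered genotypes differed from WT GFP in some nuclear members, before any Cre. These 3 comparisons share the WT GFP libraries. In Vhl GFP, 13 of 75 nuclear members passed (17.3%), 11 lower and 2 higher. Over all genes 32.1% passed, 14.9% lower and 17.2% higher. Of the 10 mitochondrial members 0 passed, with 0 at an unadjusted p under 0.05 and 0 by DESeq2. Lower were Ndufa12 (-0.26, SE 0.05), Atp5b (-0.23, SE 0.05), Sdha (-0.19, SE 0.03), Uqcrfs1 (-0.19, SE 0.04), Cox7c (-0.18, SE 0.06), Atp5f1 (-0.17, SE 0.05) and 5 others, and higher were Cox6b2 (0.39, SE 0.09) and Ndufa6 (0.32, SE 0.09). Of the 17 nuclear ATP synthase genes 5 were lower (29.4%) and of the 4 complex II genes 2 (50%), beside the 14.9% of all genes. With each library left out in turn, the call of Atp5b held in 6 of 6 cases. Those of Atp5g3 and Atp5f1 held in 5, that of Atp5a1 in 3 and that of Atp5c1 in 0. The Atp5f1 call was also lost with GC-corrected offsets. The count of 13 fell to 8 without WT GFP replicate 1 or Vhl GFP replicate 2. Atp5b stood at 1056, 1046 and 1103 CPM in WT GFP and at 887, 925 and 921 CPM in Vhl GFP, and at 884 ± 20.3 CPM in Vhl Cre.

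Cox7a2l, a relative of the Cox7a subunits that helps join complexes III and IV into supercomplexes, was the member that differed in all 3 comparisons together with Sdhd. It stood at 93.8, 94.5 and 93.8 CPM in WT GFP, at 88.2, 83.4 and 87.0 CPM in Vhl GFP, at 83.2, 80.7 and 74.1 CPM in Rassf1a GFP and at 67.8, 69.9 and 68.3 CPM in Vhl/Rassf1a GFP. Each of these groups lay below WT GFP without overlap, by a log2 of 0.13, 0.25 and 0.45 (edgeR adjusted p = 0.0494, 0.000723 and 3.22e-07). Adjusted p for Vhl GFP was above 0.05 in 5 of 6 cases with a library left out (all but Vhl GFP replicate 1). In Vhl/Rassf1a Cre it stood at 78.7, 78.3 and 75.6 CPM, above its GFP libraries, and its Cre effect exceeded that in WT by 0.21 (SE 0.07, adjusted p = 0.0349). For Rassf1a GFP, 2 of 75 nuclear members (Cox7a2l and Sdhd) and 1 of 10 mitochondrial members (mt-Nd4, -0.48, SE 0.16) were lower, beside 16.1% of all genes that passed and 6.68% that were lower; mt-Nd4 passed in 1 of 6 cases with a library left out, and without Rassf1a GFP replicate 1 it was at -0.31 (SE 0.16) and did not pass. With GC-corrected offsets 6 mitochondrial members passed, mt-Nd4 at -0.25. Without Rassf1a GFP replicate 3, 5 mitochondrial and 7 nuclear members passed. For Vhl/Rassf1a GFP, 5 nuclear members were lower (Cox7a2l, Ndufc2 by 0.22, Atp5g3 by 0.14, Sdhd by 0.13 and Sdha by 0.11) and 0 mitochondrial members passed, beside 11.5% of all genes (6.86% higher and 4.68% lower); of the mitochondrial members 0 passed at an unadjusted p under 0.05 and 0 by DESeq2. Without WT GFP replicate 2 the nuclear count was 2. With each library left out in turn, Cox7a2l and Ndufc2 held in 6 of 6 cases, Sdha and Atp5g3 in 3 and Sdhd in 2.

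Over all 8 groups, 38 of 85 members differed somewhere, 7 mitochondrial and 31 nuclear, beside 63.1% of all genes. All 4 genes of complex II were among them, as were 12 of 35 nuclear genes of complex I, 3 of 8 of complex III, 5 of 11 of complex IV and 7 of 17 of complex V. The highest group mean of a nuclear member was 1.16 times its lowest in the median, and 2.19 times for Ndufv3; for the mitochondrial members the median was 1.78. The spread within groups was also wider for the mitochondrial members, with a median coefficient of variation of 9.18% beside 4.74% for the nuclear members.

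Outside the rule, the hypoxic paralogues Cox4i2 and Ndufa4l2 rose by more than any member in the Vhl and Vhl/Rassf1a comparisons. Cox4i2, the hypoxic form of complex IV subunit 4, rose from 1.71 ± 0.202 to 34.9 ± 1.47 CPM (SD, n = 3) in Vhl (log2 4.34, SE 0.12) and from 2.30 ± 0.157 to 31.2 ± 1.41 CPM in Vhl/Rassf1a (3.76, SE 0.12). Its counterpart Cox4i1 did not pass, at 156 ± 5.36 CPM in Vhl GFP and 159 ± 6.83 CPM in Vhl Cre (log2 0.03, SE 0.06). Per kb of length in Vhl Cre, Cox4i1 stood at 102 ± 4.41 and Cox4i2 at 44.3 ± 1.86 CPM. Ndufa4l2, a HIF-induced relative of Ndufa4, rose by 4.38 (SE 0.16) in Vhl and 4.74 (SE 0.16) in Vhl/Rassf1a, from 6.50 ± 0.379 to 135 ± 11.6 CPM and from 5.93 ± 1.27 to 160 ± 7.39 CPM. Ndufa4, a complex IV subunit, fell by 0.64 (SE 0.05) and 0.60 (SE 0.05), from 88.7 ± 1.80 to 57.0 ± 1.70 CPM in Vhl. Lonp1, the protease known to degrade Cox4i1, rose by 0.71 and 0.73 (SE 0.07 each), and Higd1a, a small protein that associates with the chain, by 2.18 and 2.28 (SE 0.06 each). This list was drawn up with earlier results of these data known, so its direction is no independent evidence.

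In several other mitochondrial gene lists more members fell than rose; over all genes 18.7% fell and 17.4% rose in Vhl, and 14.8% fell and 14.9% rose in Vhl/Rassf1a. Of 77 mitochondrial ribosomal proteins tested, 3 rose and 7 fell in Vhl (median -0.04) and 1 rose and 15 fell in Vhl/Rassf1a (median -0.11); Mrpl45 rose in both (0.36 and 0.37) and Mrps10 in Vhl (0.22), while Mrpl42 fell (-0.27 and -0.21) and Mrps6 fell (-0.20 and -0.35). Of 13 genes of the tricarboxylic acid cycle, 0 rose and 3 fell in Vhl (Suclg2 -0.53, Fh1 -0.23, Idh3g -0.14), and 0 rose and 5 fell in Vhl/Rassf1a, Suclg2 by 0.41 and Fh1 by 0.23 among them, 23.1% and 38.5% of the list. Of 19 genes of mitochondrial RNA processing and stability, 0 rose in either; 3 fell in Vhl (Hsd17b10 -0.35, Pnpt1 -0.38, Fastkd1 -0.38) and 7 in Vhl/Rassf1a, with Elac2 (-0.37), the enzyme that cuts transfer RNAs from mitochondrial precursors, and Lrpprc (-0.28), which stabilises mitochondrial messenger RNAs; these are 15.8% and 36.8% of the list. Of 15 genes of mitochondrial DNA replication and transcription, 2 fell in Vhl (Mterf2 -0.38, Ssbp1 -0.17) and 1 in Vhl/Rassf1a (Tfb1m -0.37), and 0 rose. Of 12 genes of the outer membrane and import, 2 rose and 1 fell in Vhl, and 1 rose and 2 fell in Vhl/Rassf1a. Of 12 genes of mobile electron carriers, 1 rose and 3 fell in Vhl, and 0 rose and 2 fell in Vhl/Rassf1a.

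Assembly factors were mixed. For complex II, 1 of 4 rose and 0 fell in Vhl, and 1 rose and 1 fell in Vhl/Rassf1a. For ATP synthase assembly and inhibition, 0 of 4 rose and 1 fell in Vhl, and 0 passed in Vhl/Rassf1a. For complex I, 2 of 16 rose and 2 fell in Vhl, with Ndufaf5 at -0.55 and Timmdc1 at 0.20, and 1 rose and 5 fell in Vhl/Rassf1a, with Ndufaf6 at -0.65 and Ndufaf2 at -0.42. For complex III, Bcs1l, which inserts the Rieske protein, fell by 0.68 in Vhl and 0.38 in Vhl/Rassf1a, and Lyrm7 fell by 0.67 in Vhl. For complex IV, 1 of 19 tested rose and 2 fell in Vhl (Cox19 0.33, Coa3 -0.18, Cox15 -0.15), and 1 rose and 5 fell in Vhl/Rassf1a, with Coa7 at -0.43. Among 14 regulators of mitochondrial biogenesis 4 rose and 1 fell in Vhl, and 3 rose and 2 fell in Vhl/Rassf1a. Of these, Mxi1, a HIF target that opposes MYC, rose by 1.75 and 1.91, and Myc rose by 0.58 in Vhl. The share passing was 13.0% of the ribosomal proteins in Vhl and 20.8% in Vhl/Rassf1a, where 36.1% and 29.7% of all genes passed.

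Markers of other cell types also moved with the Cre label in Vhl cells. The summed epithelial markers ranged from 37.2 to 38.1 CPM in Vhl GFP and from 126 to 143 CPM in Vhl Cre, 4 of 4 tested being higher, and from 76.4 to 95.9 against 193 to 199 CPM in Vhl/Rassf1a, 2 of 4 being higher. Muscle markers summed to 135 to 154 against 384 to 455 CPM in Vhl, 3 of 5 tested being higher, led by Acta1 (2.02). In Vhl/Rassf1a the muscle markers summed to 199 to 246 against 468 to 486 CPM, 2 of 5 being higher. Of the 10 muscle markers listed, Myog, Ckm and Myh6 had a mean under 0.05 CPM over all 24 libraries. The single markers given below as under 0.05 CPM are also means over all libraries. Endothelial markers summed to 4.38 to 5.90 against 10.8 to 11.8 CPM in Vhl, 3 of 4 tested being higher, with Tie1 under 0.05 CPM, and to 10.7 to 11.3 against 11.0 to 12.7 CPM in Vhl/Rassf1a, 1 of 4 being higher. Of 5 neural markers, 2 were higher and 2 lower in Vhl, and 3 higher and 2 lower in Vhl/Rassf1a. Of 3 fat cell markers tested, 1 was lower in Vhl and 3 in Vhl/Rassf1a, with Adipoq and Plin1 under 0.05 CPM, and of 4 macrophage markers 1 was higher in each, with Adgre1 under 0.05 CPM. Fibroblast markers summed to 32997 to 34511 against 26018 to 28408 CPM in Vhl, 5 of 10 being lower, and in Vhl/Rassf1a 1 of 10 was lower and 1 higher. Over all genes 36.1% passed in Vhl and 29.7% in Vhl/Rassf1a. The part of these markers in the subunit results was not tested.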

How the data were processed

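The labels' protocols name NucleoSpin RNA extraction and TruSeq Stranded libraries for all 24 samples. The submitters' processing notes name Trimmomatic 0.38, STAR 2.5.2b and the GRCm38 build. How reads were assigned to genes, with which annotation and strand setting, is not given in the sources used here. The deposited values are raw read counts per Ensembl gene. Titles gave the groups. A series-level note mentions single kidney tubule cells, which differs from the sample labels; the latter were followed. Symbols, coordinates and transcripts came from GENCODE M21, which named 45143 of 45706 IDs, and promoters from RefSeq (GRCm38.p6).

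Members were chosen on CPM of library totals. Means over all 24 libraries, levels of nuclear copies and overlapping genes, marker sums and the deviations by base composition also use library totals. Other CPM values use TMM library sizes. One model with a mean for each of 8 groups was fitted to all libraries with edgeR 4.0.16 (glmQLFit, glmQLFTest, TMM) in R 4.3.3, after filterByExpr (minimum count 10, minimum total 15), which kept 16573 genes and all 85 members. There were 16 residual degrees of freedom. The two-sided p-values were adjusted by Benjamini and Hochberg over all genes tested in each of 12 comparisons, with a threshold of 0.05, and every adjusted p given is from this edgeR test unless DESeq2 1.42.0 is named. SE is the size of a log2 fold change divided by the square root of F. The model was tested on simulated data. GC-corrected offsets were lowess fits over gene GC content with a span of 0.3. Genes named were all mitochondrial members, up to 6 highest and 6 lowest nuclear members past the threshold per comparison, the extremes of level per complex, the tissue isoforms, Vhl, Rassf1, the excluded paralogues and the 3 called genes of smallest p per list and comparison. The members and lists were chosen with earlier results of these data known. Replicate numbers did not pair the libraries, so no block was used in the results. The values of 1 nuclear member are not reported here; counts include it.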

Additional observations from a re-analysis of the deposited data

Results flagged for a closer look

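In 8 results the Cre effect of an altered genotype differed from the Cre effect in WT by the test of that difference (edgeR's quasi-likelihood test, adjusted over all genes). In Vhl these were Ndufv3 (0.87), mt-Co2 (-0.93), mt-Cytb (-0.85), Atp5a1 (-0.20), Sdha (-0.15) and Cox6b2 (-0.34), all as differences of log2 fold changes. In Vhl/Rassf1a they were Ndufv3 (0.87) and Cox7a2l (0.21). The calls of Ndufv3, mt-Co2, mt-Cytb and Atp5a1 held with each of the 12 libraries left out in turn. Without the filter on low counts the calls of Atp5a1 (adjusted p = 0.105), Sdha (0.399), Cox6b2 and Cox7a2l (0.212) were lost, and that of Cox6b2 was also lost with a replicate block. The Sdha call held in 8 of 12 cases (lost without WT GFP replicate 3, Vhl GFP replicate 3, or Vhl Cre replicates 1 or 3) and the Cox7a2l call in 7 (lost without WT GFP replicates 1 or 3, WT Cre replicate 3, or Vhl/Rassf1a Cre replicates 1 or 2). The Cox6b2 call held in 3 of 12, those without Vhl GFP replicates 2 or 3 or Vhl Cre replicate 2. Groups of 3 libraries were too small for a test of single outlying libraries.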

How the results depend on the processing

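No direction of a named gene's call reversed in any setting tried. Counts below are members past the threshold. Effects minus WT are differences of Cre effects, and the causes of the moves were not tested. The share of all genes passing moved too. For Vhl Cre it was 36.1% in the main fit and 18% without the filter. It was 45.9% with only the groups compared, 46.3% with GC-corrected offsets and 45.3% without both libraries that stand apart. In that order the shares were 29.7%, 14.7%, 19.4%, 40.2% and 34.1% for Vhl/Rassf1a Cre. For Vhl minus WT they were 23.2%, 11.1%, 29%, 33% and 31.8%. With no filter beyond a total of 1, mitochondrial counts became 1 in WT Cre, 7 in Rassf1a Cre, 4 in Vhl/Rassf1a Cre, 10 for Vhl minus WT, 3 for Rassf1a minus WT, 5 for Vhl/Rassf1a minus WT, 9 for Vhl/Rassf1a minus Vhl, and 3, 8 and 8 in Vhl, Rassf1a and Vhl/Rassf1a GFP against WT GFP; nuclear counts became 2 for Vhl minus WT and 3 in Vhl/Rassf1a GFP. With only the groups compared, nuclear counts became 22 in Vhl Cre, 4 in Vhl/Rassf1a Cre, 8 for Vhl minus WT, and 20, 1 and 1 in the GFP comparisons, and mitochondrial counts 9 for Vhl minus WT, 2 in Vhl GFP and 0 in Rassf1a GFP. With GC-corrected offsets, nuclear counts became 20 in Vhl Cre, 16 in Vhl/Rassf1a Cre, 10 for Vhl minus WT, 13 for Vhl/Rassf1a minus WT, 2 for Vhl/Rassf1a minus Vhl and 9 in Rassf1a GFP. The mitochondrial counts were then 1 in Rassf1a Cre, 4 in Vhl/Rassf1a Cre, 9 for Vhl minus WT, 3 for Vhl/Rassf1a minus WT, 2 for Vhl/Rassf1a minus Vhl, 1 in Vhl GFP and 6 in Rassf1a GFP. With a replicate block and GC-corrected offsets together the moved counts were the same, except 2 mitochondrial members in Rassf1a Cre, 9 nuclear for Vhl/Rassf1a minus WT and 20 nuclear in Vhl GFP. With both libraries that stand apart left out, mitochondrial counts became 9 in Vhl/Rassf1a Cre, 9 for Vhl minus WT, 8 for Vhl/Rassf1a minus WT, and 1, 6 and 1 in the GFP comparisons. The nuclear counts were then 25 in Vhl Cre, 20 in Vhl/Rassf1a Cre, 12 for Vhl minus WT, 8 for Vhl/Rassf1a minus WT, 5 for Vhl/Rassf1a minus Vhl, 21, 4 and 8 in the GFP comparisons, and 47 over all groups. The Wald test of DESeq2 gave 5 nuclear members for Vhl/Rassf1a minus WT and 4 in Rassf1a GFP, and library sizes without mitochondrial genes gave 4 for Vhl/Rassf1a minus WT.

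Leaving out 1 library gave 3 to 6 mitochondrial and 7 to 11 nuclear members in Vhl Cre, and 0 to 4 mitochondrial members in Vhl/Rassf1a Cre and for Vhl/Rassf1a minus WT. Nuclear counts were 2 to 4 for Vhl minus WT, 1 to 5 for Vhl/Rassf1a minus WT, 0 to 2 for Vhl/Rassf1a minus Vhl, and 8 to 12, 2 to 7 and 2 to 6 in Vhl, Rassf1a and Vhl/Rassf1a GFP; Rassf1a GFP had 0 to 5 mitochondrial members. With the replicate block alone, Vhl Cre had 6 mitochondrial and 13 nuclear members and Vhl/Rassf1a Cre 9 nuclear members, and no count moved by over 1.5 times. The replicate numbers shared only a label: same-numbered libraries correlated at -0.179 to 0.084 in their deviations, and 3 of 12 correlated best with their own number. The median nuclear level in WT GFP was 47.6 CPM per kb of the longest transcript in place of 32.8, and the Vhl change in the log2 ratio of mitochondrial to nuclear counts was -0.41 by medians in place of -0.55.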
